A study of Arabidopsis thaliana with 6 samples.

Results

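ATG8 and ATG3 are genes of autophagy, the route by which plant cells enclose parts of their own cytoplasm in a membrane and pass them to the vacuole for breakdown. ATG8 is a small ubiquitin-like protein that is joined to a lipid of the growing autophagosome membrane, where it binds cargo receptors, and ATG3 is the E2-like enzyme that makes this join. Plants carry a family of ATG8 genes, and transcripts of several of them are known to accumulate during carbon or nitrogen starvation and senescence. The genes described here are ATG3 (AT5G61500) and 7 members of the ATG8 family, ATG8B (AT4G04620), ATG8C (AT1G62040), ATG8D (AT2G05630), ATG8E (AT2G45170), ATG8F (AT4G16520), ATG8G (AT3G60640) and ATG8H (AT3G06420). Each had 1 probe set named with that gene alone, which gives 8 of the 13350 genes so named and 8 probe sets of the 22746 that were tested.

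The 8 genes were chosen on their values in these same arrays over the 3 days. Their levels and changes are therefore given as a description, without p-values. The counts of members past the threshold of the fit support nothing beyond the choice itself. A further 2 family members, ATG8A (AT4G21980) and ATG8I (AT3G15580), had probe sets under older names and were not among the chosen genes, and they were tested with the rest of the pathway.

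RNA came from unopened flower buds of Arabidopsis thaliana plants carrying a mutation in DREB1A, a drought- and cold-responsive transcription factor gene (dreb1a, stock CS872453, Col-0 background). All samples share this genotype and the drought treatment. Water was withheld from plants grown for 24 days, soil moisture stood near 35% of capacity some 80 hours later (day 3) and was then held there, and buds were collected on day 3 (plants aged 28 days), day 4 (29 days) and day 5 (30 days), with 2 arrays for each. Neither wild-type nor well-watered plants were analysed here, and the level of DREB1A itself was not analysed here. Every comparison is therefore between days within droughted mutant plants, and the day of drought cannot be told apart from the age of the plant. The labels name neither the type of the mutation nor separate plants for the replicates, so the spread between arrays may be technical.

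Values are log2 signals of Affymetrix ATH1 arrays. The number of arrays limits their precision. All 8 members lay clear of background: their lowest value on any array was 6.55, and the highest value of 3 control probe sets for an absent bacterial transcript was 3.86. Between the 2 arrays of the same day the median difference over all probe sets was 0.10 to 0.13. A gene counts as measured here only where a probe set is named with it alone. The annotation used names no gene for 8730 of the 22746 tested probe sets, so a gene not measured may still have a probe set on the array. Of the flower bud markers, 2 of 12 were measured, SPL and AMS. Both were well above background, at 7.19 and 9.02 on day 5, whereas EXPA7, the 1 measured root hair marker of 4, stayed between 4.15 and 4.38. A probe's brightness depends on its sequence, so the levels of different genes are not ranked against each other. In bulk tissue, more RNA per cell and more cells of a type cannot be told apart.

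ATG8F had the largest difference of the 8 genes over the whole span. It stood at 10.37 and 10.50 on day 3, at 10.37 and 10.48 on day 4, and at 11.33 and 11.35 on day 5. Days 3 and 4 overlapped, and both day 5 arrays were above all the others. Its day 5 mean was 1.89-fold the day 4 mean (log2 change 0.92, SE 0.10) and 1.88-fold the day 3 mean, while day 4 and day 3 differed by a log2 change of -0.01.

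ATG8B and ATG8H were likewise level over days 3 and 4, whereas ATG8C was a little higher on day 4 than on day 3. ATG8B read 9.29 and 9.14 on day 3, 9.34 and 9.17 on day 4, and 9.95 and 9.90 on day 5. ATG8H, whose protein ends in the glycine that is joined to the lipid and needs no trimming by the ATG4 protease, read 7.79 and 7.74 on day 3, 7.80 and 7.69 on day 4, and 8.43 and 8.26 on day 5. For both genes days 3 and 4 overlapped and day 5 stood apart. On day 5 ATG8B was 1.59-fold its day 4 level (log2 change 0.67, SE 0.11) and ATG8H 1.52-fold (log2 change 0.60, SE 0.11). ATG8C read 9.53 and 9.38 on day 3, 9.67 and 9.56 on day 4, and 10.09 and 9.99 on day 5, so its days did not overlap and each day lay above the one before. The gap between days 3 and 4 was small, a log2 change of 0.16 with an SE of 0.11, against 0.42 between days 5 and 4. Both day 4 arrays lay above both day 3 arrays for 28.4% of all probe sets.

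ATG8E was the member that moved in both directions. It read 7.38 and 7.18 on day 3, 6.61 and 6.55 on day 4, and 7.81 and 7.97 on day 5. None of the 3 days overlapped with another, with day 4 lowest and day 5 highest. The day 4 mean was 0.70 below that of day 3 on the log2 scale (SE 0.11), or 0.616 of it, and the day 5 mean was 2.48-fold that of day 4 (log2 change 1.31, SE 0.11). Across the whole span the day 5 mean was 1.53-fold that of day 3. ATG8E was the 1 member that passed the threshold between days 3 and 4, and that call ended without day 3 replicate 1, when the change was -0.60.

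The smallest differences were those of ATG8G, ATG8D and ATG3. ATG8G had the widest spread between arrays, with 8.64 and 8.38 on day 3, 8.57 and 8.79 on day 4, and 9.13 and 8.90 on day 5. Its within-day SD reached 0.19, and the log2 change of 0.33 (SE 0.13) between days 5 and 4 left it as the 1 member not past the threshold for that step. ATG8D read 9.42 and 9.35 on day 3, 9.40 and 9.29 on day 4, and 9.61 and 9.75 on day 5. Its days 3 and 4 overlapped, and day 5 was above both by a log2 change of 0.34 over day 4 and 0.30 over day 3 (SE 0.10 each).

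ATG3, the conjugating enzyme gene, read 9.17 and 9.03 on day 3, 8.82 and 9.02 on day 4, and 9.30 and 9.24 on day 5. Its day 4 arrays lay just below those of day 3 (log2 change -0.18, SE 0.11), a difference that did not pass the threshold. Day 5 was above day 4 by 0.35 (SE 0.11) and above day 3 by only 0.17 (SE 0.11), so over the whole span ATG3 had the smallest change of the 8 genes. The ATG8 members had log2 changes of 0.30 to 0.91 over that span.

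**Figure D1:**
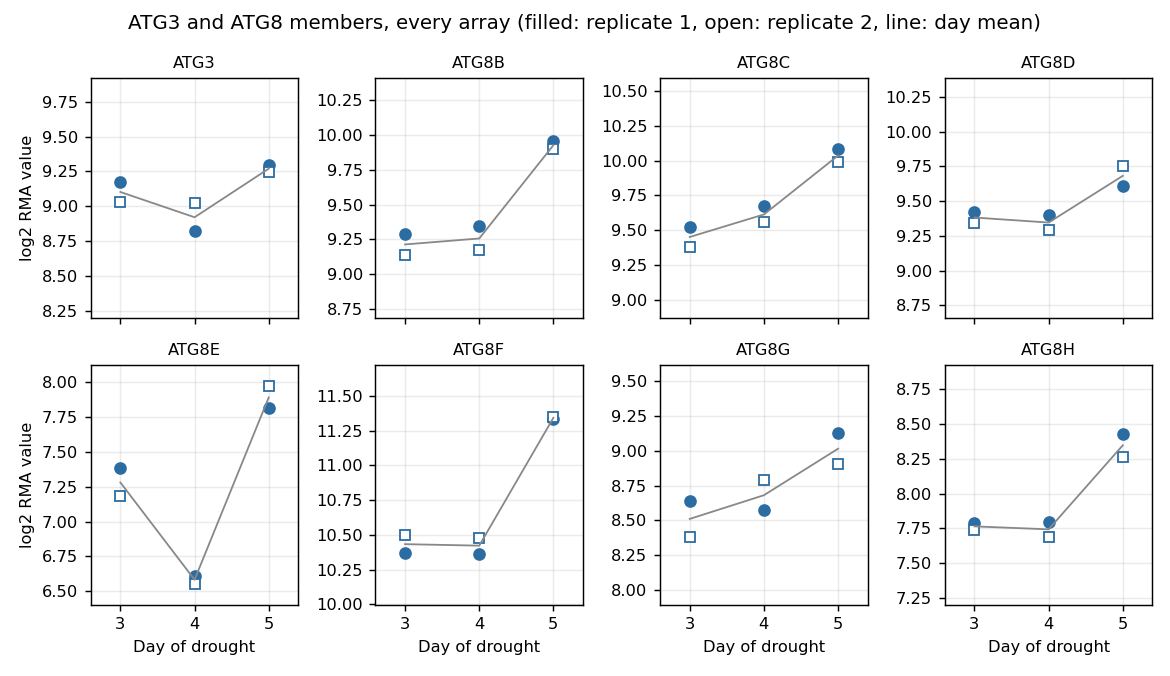
Log2 RMA value (vertical axis, the same span in every panel) of each of the 8 genes on each array against the day of drought (horizontal axis), with replicate 1 filled, replicate 2 open and a line through the day means. Day 5 is the highest day for every gene, and ATG8E, at 6.61 and 6.55, has a trough on day 4.

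Set side by side, the step from day 4 to day 5 held most of the change. Between days 4 and 3 the median log2 change of the 8 genes was -0.02, against 0.02 for all probe sets. In that step 1 member, ATG8E, fell past the threshold (limma, adjusted p under 0.05) where 2.47% of all probe sets fell, and no member rose where 2.48% did. At an unadjusted p under 0.05 those counts were also 1 and 0. Between days 5 and 4 the median change of the members was 0.51, against -0.05 for all probe sets, and 7 of 8 rose past the threshold where 10.5% of probe sets rose and 13.4% fell. Both day 5 arrays were above both day 4 arrays for 8 of 8 members and for 25.1% of all probe sets.

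For the whole span, day 5 against day 3, the members' median change was 0.58, against -0.01 for all probe sets. Past the threshold, 6 of 8 rose, all of them ATG8 genes, where 13.2% of all probe sets rose and 15.7% fell, and ATG3 and ATG8D did not pass. Both day 5 arrays were above both day 3 arrays for 8 of 8 members and 30.2% of all probe sets. The comparisons share arrays, so these counts are not independent of each other. Because the choice of the genes used these comparisons, nothing is read from the shares. The count of 7 for days 5 and 4 was 4 without day 5 replicate 1 and also 4 without day 5 replicate 2, and the members lost in both were ATG3, ATG8C and ATG8D. ATG8G lost its call over the whole span without day 3 replicate 2 or day 5 replicate 1.

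**Figure D2:**
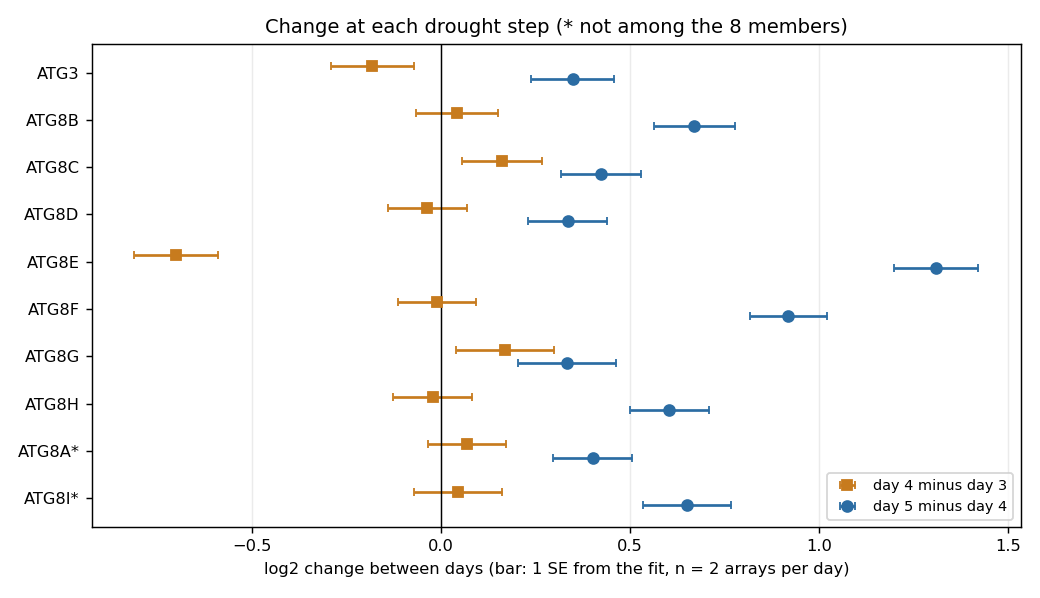
Log2 change (horizontal axis, bars of 1 SE from the fit, n = 2 arrays per day) at the first step, day 4 minus day 3 (squares), and at the second, day 5 minus day 4 (circles), for the 8 members and for ATG8A and ATG8I. At the first step the members lie between -0.70 and 0.17, and at the second between 0.33 and 1.31.

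The members also differed in how alike their courses were. Likeness was measured as the root mean square difference, over the 6 arrays, between values centred on each gene's own mean. ATG8B and ATG8H were the closest pair, at 0.071, followed by ATG8C and ATG8H at 0.093. ATG8E and ATG8G were the farthest apart, at 0.459, and ATG8E was at least 0.305 from every other member. ATG3 was nearest to ATG8D, at 0.126.

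Among all probe sets named with 1 gene outside the members, the 6 nearest to the members' mean course were AT2G22660, AT3G06170, AT5G54870, AT2G45820, SDP1 and AT1G76820, at distances of 0.029 to 0.051. SDP1, which encodes a lipase that breaks down stored triacylglycerol, had means of 7.66, 7.53 and 8.13 on days 3, 4 and 5. AT2G22660, the nearest, had 10.23, 10.18 and 10.76. For the course of ATG8E, the member with the widest range of day means, the nearest were AT3G52480, MSRB5, AT1G30820, AT1G33700, AT3G49790 and AT5G18490, at 0.096 to 0.185. MSRB5, a methionine sulfoxide reductase gene, averaged 9.07, 8.29 and 9.56 on the 3 days. These distances are descriptions over 6 arrays.

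The remaining 2 ATG8 genes were outside the members. The gene lists that hold them were also chosen with earlier results of these data known, so their tests are not free of that knowledge. ATG8I, listed in the array annotation as APG8H, read 10.27 and 10.14 on day 3, 10.32 and 10.19 on day 4, and 10.78 and 11.03 on day 5. Its days 3 and 4 overlapped and both day 5 arrays were above them. ATG8I rose on day 5, to 1.57-fold its day 4 level (log2 change 0.65, SE 0.12, limma adjusted p = 0.00275) and 1.62-fold its day 3 level (adjusted p = 0.00115). ATG8A, listed as APG8A, read 9.24 and 9.08 on day 3, 9.27 and 9.19 on day 4, and 9.65 and 9.61 on day 5. It rose by 0.40 over day 4 (SE 0.10, limma adjusted p = 0.0175) and by 0.47 over day 3 (SE 0.10, adjusted p = 0.00603), again with overlap between days 3 and 4 only.

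With these 2 and the values as deposited, day 5 was the highest day for all 9 measured ATG8 genes. As 7 of the 9 are members chosen on these same arrays, nothing is read from that count. When arrays were scaled to spiked poly-A control transcripts, described below, ATG8A, ATG8C, ATG8D and ATG8G were lower on day 5 than on day 4. Neither ATG8I nor ATG8A passed between days 4 and 3 (log2 changes 0.05 and 0.07, adjusted p = 0.869 and 0.762). A direct test of whether the second step exceeded the first did not pass for either (differences of 0.61 and 0.33, adjusted p = 0.0965 and 0.278 in limma), although it did for ATG8I when the prior was allowed to vary with signal level (adjusted p = 0.0245). The calls of ATG8A between days 5 and 4 ended without day 4 replicate 2 or either day 5 array (adjusted p = 0.0719, 0.0917 and 0.0756). Its call for day 5 against day 3 ended without day 3 replicate 2 (adjusted p = 0.0633).

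The rest of the machinery was covered thinly by the probe sets that the annotation names. A list of 50 further autophagy genes covered the initiation kinase complex, phosphatidylinositol 3-kinase complex, ATG9 and ATG18 membrane supply, conjugation, cargo receptors and traffic. It was drawn from knowledge of the pathway, but with earlier results of these data known, so its counts and tests are not free of that knowledge. Of the 50, 17 were measured by a probe set carrying no other gene, and none of the 10 listed genes of ATG9 and ATG18 membrane supply was. The platform annotation gives 15 of the 17 no symbol, and those are named by locus here unless the RefSeq table gives one. For day 5 against day 3, 5 of the 17 rose, 1 fell and 11 did not pass, where 13.2% of all probe sets rose and 15.7% fell. The median log2 change was 0.15, against -0.01 for all probe sets. For day 5 against day 4, 5 rose and none fell (8 higher and 0 lower at an unadjusted p under 0.05), where 10.5% of all probe sets rose and 13.4% fell. The median was 0.17, against -0.05 for all probe sets. ATG8A and ATG8I, described above, are among the 17 and among the 5 that rose in both comparisons. For day 4 against day 3 none of the 17 passed in limma, and 0 were higher and 1 lower at an unadjusted p under 0.05. These counts use the brightest probe set of a gene, and the 2 probe sets of AT2G37840 in the initiation list disagreed. The dimmer, with signals of 5.28 to 5.91, rose over day 3 on day 4 (0.45, adjusted p = 0.0437) and on day 5 (0.47, adjusted p = 0.00891), where the brighter stood at -0.15 and 0.02 (adjusted p = 0.498 and 0.932).

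ATG101 (AT5G66930), of the kinase complex that starts autophagosome formation, read 7.90 and 7.83 on day 3, 7.69 and 7.99 on day 4, and 8.29 and 8.45 on day 5. It rose by 0.53 over day 4 (SE 0.12, limma adjusted p = 0.00927) and by 0.51 over day 3 (adjusted p = 0.00899). Of the conjugation list, AT5G50230 rose by 0.39 over day 3 (SE 0.11, adjusted p = 0.0189), and AT3G59950 stood at -0.08 (adjusted p = 0.614).

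In the list of receptors and traffic, AT3G43230 rose by 0.30 over day 3 (SE 0.10, adjusted p = 0.0498), while AT5G42000 dropped by 0.36 (SE 0.10, adjusted p = 0.0232). The remaining 3 of that list did not pass. In the phosphatidylinositol 3-kinase list neither measured locus passed for day 5 against day 3, with AT2G32760 at -0.24 (adjusted p = 0.11) and AT1G77890 at 0.11 (adjusted p = 0.592). Many of these calls were near the threshold. The 6 calls for day 5 against day 3 became 1 without day 3 replicate 2 and 2 without day 5 replicate 2. The 5 for day 5 against day 4 became 2 when day 4 replicate 1 or day 5 replicate 1 was left out, and 1 when it was day 5 replicate 2.

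Of the genes that govern autophagy upstream, 4 of 20 were measured. None passed for day 5 against day 3 in limma, and 0 did at an unadjusted p under 0.05. RAPTOR1, which encodes a partner of the TOR kinase that holds autophagy back, stood at 0.10 (adjusted p = 0.508), RAPTOR2 at -0.01 and the bZIP transcription factor gene BZIP53 at -0.05. AKINBETA1, which encodes a beta subunit of the energy-sensing SnRK1 kinase complex, averaged 8.63, 8.27 and 8.67 on days 3, 4 and 5. It rose by 0.40 over day 4 (SE 0.11, adjusted p = 0.0281), a call that ended without the second array of day 4 (adjusted p = 0.122) or either of day 5 (0.0941 and 0.132). Its second step exceeded its first by 0.75 (SE 0.20, adjusted p = 0.0462). For day 5 against day 3 it stood at 0.04 (adjusted p = 0.838).

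Autophagosomes deliver their contents to vacuolar proteases, and several of those genes changed over the same days. Of 15 listed genes of vacuolar proteases and proton pumps, 9 were measured. For day 5 against day 3, 5 of the 9 rose and 1 fell, where 13.2% of all probe sets rose and 15.7% fell. The median log2 change of the 9 was 0.59, against -0.01 for all probe sets. This list too was chosen with earlier results of these data known. GAMMA-VPE (AT4G32940) and BETA-VPE (AT1G62710) encode vacuolar processing enzymes, cysteine proteases that mature other vacuolar proteins. GAMMA-VPE read 9.34 and 9.09 on day 3, 9.69 and 9.79 on day 4, and 11.26 and 11.34 on day 5. Its 3 days did not overlap, and it rose 4.23-fold over the span (log2 change 2.08, SE 0.11, adjusted p = 9.61e-07).

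BETA-VPE averaged 7.02 on day 3, 8.30 on day 4 and 9.02 on day 5, with SDs of 0.02, 0.13 and 0.04. It rose on day 4 already, by 1.28 over day 3 (SE 0.10, adjusted p = 0.000129), and by a further 0.72 on day 5 (adjusted p = 0.000801). Whether its first step differed from that of the ATG8 genes was not tested. GAMMA-VPE also rose on day 4, by 0.53 (SE 0.11, adjusted p = 0.0254), but that call ended when either day 3 array was left out (adjusted p = 0.0542 without replicate 1 and 0.169 without replicate 2) or the second of day 4 (0.124).

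Among the other proteases, APA1 (AT1G11910), an aspartic proteinase gene, rose by 0.59 over day 3 (SE 0.10, adjusted p = 0.00105), and the listed loci AT1G62290 and AT4G04460 rose by 1.55 (adjusted p = 2.92e-05) and 0.75 (adjusted p = 0.000584). DELTA-VPE, a further vacuolar processing enzyme gene, dropped by 0.84 (SE 0.19, adjusted p = 0.00628), a call that ended without the first array of day 3 (adjusted p = 0.069) and without the second of day 5 (adjusted p = 0.0578). The pump subunit genes VHA-A2 and VHA-A3 stood at 0.06 and -0.06 (adjusted p = 0.756 and 0.702) and ALPHA-VPE at 0.13 (adjusted p = 0.522).

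**Figure D3:**
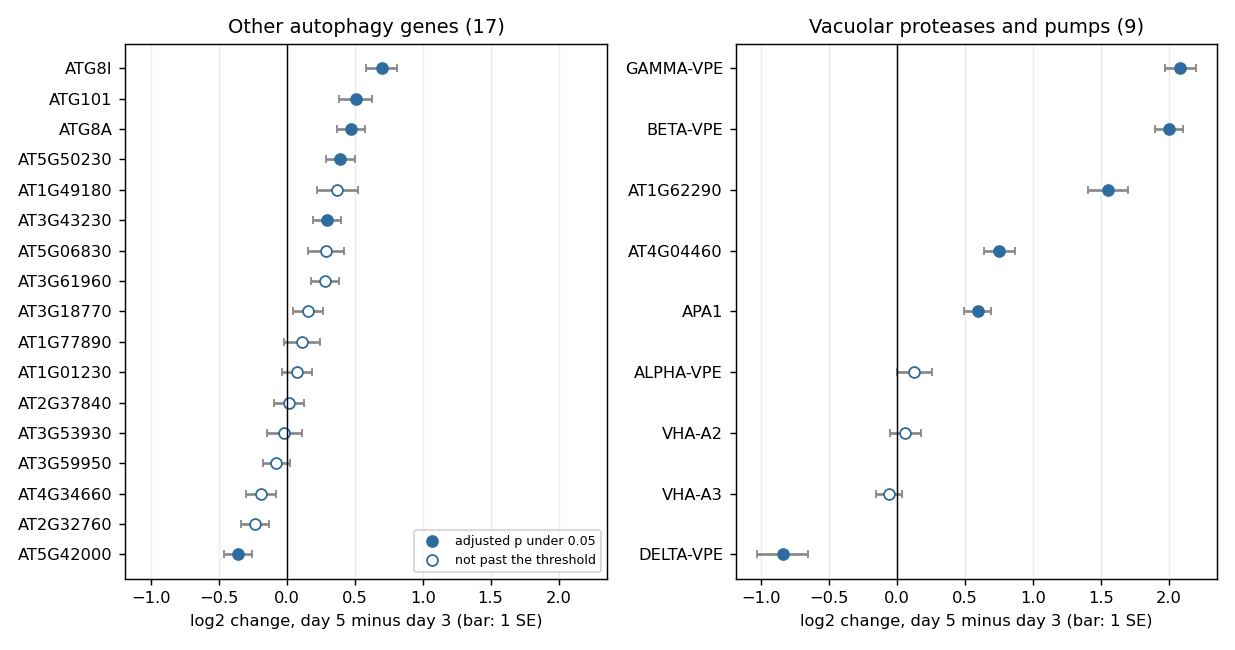
Log2 change of day 5 minus day 3 (horizontal axis, bars of 1 SE) for the 17 further autophagy genes at left and the 9 vacuolar protease and pump genes at right, filled where the limma adjusted p was under 0.05. ATG8I is the highest of the left panel at 0.70, and GAMMA-VPE and BETA-VPE lead the right panel at 2.08 and 2.00.

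The senescence list had 3 of 12 genes measured and the proteasome list 1 of 10, which is too few to describe either. For day 5 against day 3, 13.2% of all probe sets rose and 15.7% fell. In that comparison SAG101 stood at -0.15 and WRKY53 at 0.08 (limma adjusted p = 0.509 and 0.686). WRKY6 rose by 0.38 over day 3 (adjusted p = 0.0352), a call that ended without the first array of day 3 (adjusted p = 0.245) or of day 5 (adjusted p = 0.244) and when the prior varied with signal level (adjusted p = 0.0616). The proteasome subunit gene RPN12a dropped by 0.38 (adjusted p = 0.0273), a call that ended after cyclic loess (adjusted p = 0.0611) and without day 3 replicate 2 or either day 5 array (adjusted p = 0.222, 0.0709 and 0.15).

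Several measures moved together with day 5. Spiked poly-A control transcripts averaged 0.55 higher on day 5 than on day 4 over 24 probe sets, and the array maker's 25S rRNA control read 13.30 and 13.52 on day 5 and 12.46 and 12.50 on day 4. When each array was scaled to the poly-A controls, the median change of all probe sets between days 5 and 4 became -0.60, and the members' median became -0.04. The scaling shifts every probe set of an array by the same amount. The members' median was therefore bound to stay 0.56 above that of all probe sets, as with the values as deposited. Under that scaling ATG8E and ATG8F still rose, by 0.76 and 0.37, ATG8B and ATG8H stood at 0.12 and 0.05, and ATG3, ATG8C, ATG8D and ATG8G stood at -0.20, -0.13, -0.21 and -0.22. Of the tested genes GAMMA-VPE and AT1G62290 still rose, by 1.01 and 0.61, whereas BETA-VPE, APA1 and AT4G04460 lost their calls for that step, at 0.17, 0.011 and 0.13 (adjusted p = 0.212, 0.939 and 0.357). Over the whole span APA1 and AT4G04460 lost theirs too, at 0.11 and 0.26 (adjusted p = 0.447 and 0.081), and BETA-VPE kept its rise, at 1.51. Between days 5 and 4 ATG8I stood at 0.10 (adjusted p = 0.511) and ATG8A turned to -0.15 (adjusted p = 0.301). Each change given here is therefore a change against the bulk of probe sets on the array, and the part of total mRNA content in them was not tested.

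**Figure D4:**
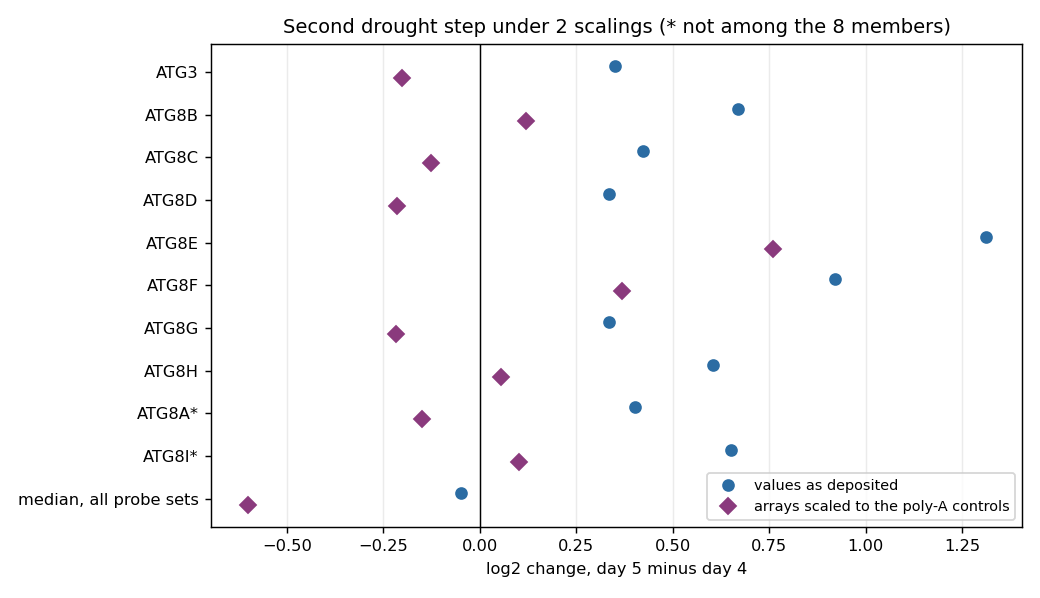
Log2 change of day 5 minus day 4 (horizontal axis) for the 8 members, ATG8A, ATG8I and the median of all probe sets, with the values as deposited (circles) and after scaling each array to the poly-A controls (diamonds). The scaling moves every point by the same amount, so their order cannot change, with ATG8E at 0.76 and ATG8F at 0.37 highest.

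Some flower tissue markers shifted as well, over a span in which 13.2% of all probe sets rose and 15.7% fell (day 5 against day 3). Of the measured flower bud markers, SPL and AMS both fell for day 5 against day 3, by 0.51 and 0.54 (limma adjusted p = 0.00994 and 0.0154), although neither call held without day 3 replicate 1 or without day 5 replicate 1. The log2 of their summed signal was 9.21 to 9.55 on day 5, 9.68 to 9.93 on day 4 and 9.90 to 9.92 on day 3. Of the mature pollen markers 5 of 7 were measured and 3 rose over the same span, ANX2 by 0.45, AGL65 by 0.42 and AT5G45880 by 0.29 (adjusted p = 0.0189, 0.014 and 0.0452). ANX1 and AGL66 did not pass, at 0.06 and 0.02 (limma adjusted p = 0.742 and 0.912). ANX2 had also risen for day 4 against day 3, by 0.54 (adjusted p = 0.0309), a call that ended without any 1 of the 4 arrays. For day 5 against day 3 the call of AT5G45880 ended without any 1 of the 4 arrays and with the replicate number as a block (adjusted p = 0.0526). That of AGL65 ended without day 3 replicate 1 or either day 5 array, and that of ANX2 without day 3 replicate 2 or day 5 replicate 1. The log2 of the summed signal of all 5 was 12.37 to 12.39 on day 5, 12.27 to 12.34 on day 4 and 12.09 to 12.11 on day 3, with none at background. Most of that sum was AT5G45880 alone, at 11.97 to 12.28 on single arrays, where the others reached at most 7.14. The difference between 3′ and 5′ control probe sets, a sign of RNA integrity, was 1.25 to 1.26 on day 5, 0.94 to 1.06 on day 4 and 0.94 to 1.19 on day 3 for GAPDH, and 3.46 to 3.47, 3.27 to 3.43 and 3.42 to 3.65 on days 5, 4 and 3 for actin. The part of tissue makeup and RNA integrity in the ATG8 values was not tested.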

How the data were processed

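RNA of unopened flower buds was measured on ATH1 arrays, 1 array per sample, with 2 samples on each of 3 days. The deposited log2 values, 1 per probe set and array, came from the authors' RMA processing with affy, as the submitters' processing notes state. The sources used here give no software version and do not say which arrays were normalized as a set. RMA equalises the arrays' distributions, which hides a change common to most transcripts.

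Of 22810 probe sets, 64 controls were left out. All 6 arrays entered 1 fit on 22746 probe sets in limma 3.58.1 (R 4.3.3: lmFit, contrasts.fit, eBayes without trend) with the day as the only term and 3 residual degrees of freedom. P-values are two-sided, and the Benjamini-Hochberg adjustment of each contrast covers the full set of tested probe sets. The threshold is 0.05. The fit was tested on simulated data.

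Probe sets were named through the platform annotation and matched to loci by gene ID in the RefSeq table of TAIR10.1. Of those tested, 13513 carried 1 gene, 503 several and 8730 none here. The brightest probe set stood for a gene with several. No coordinates or sequences were used. The members and the gene lists were chosen with earlier results of these data known. Named in the text are all members, the list genes past the threshold for day 5 against day 3 (or the 2 with the smallest p), list genes that passed a single step described and the 6 nearest courses, with a few list members added after their values were seen, as was the test of the second step against the first.

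Alternatives were other priors, scalings and probe filters, the replicate number as a block, fits of only the days compared, each array left out, a 2-fold minimum, and averaging where a gene had several probe sets.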

Additional observations from a re-analysis of the deposited data

How the results depend on the processing

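Repeated quantile normalization, cyclic loess, centring on the array median, another prior, and filters on dim or cross-hybridising probe sets kept every count of calls within 1.5 times, and the members' medians within the spread of replicates. Scaling to the poly-A controls moved both counts and directions. It gave 19570 calls between days 5 and 4 and 18174 between days 5 and 3, with 1.97% and 3.93% of them rises, against 44.0% and 45.6% as deposited, and 68.0% against 50.1% for day 4 against day 3. With it the members' median was -0.036 and 0.10 for these spans, 2 members were called in each (ATG8E and ATG8F rose in the first, ATG8F rose and ATG3 fell in the second), and 9 other autophagy genes were called for day 5 against day 4, none shared with the calls as deposited. For day 5 against day 4 it turned the sign of ATG8G (-0.22) and AT1G77890 (-0.19), called with neither scaling, and of ATG3 (-0.20), ATG8A (-0.15), ATG8C (-0.13), ATG8D (-0.21), AT5G66930 (-0.018), AT5G50230 (-0.16), AT3G43230 (-0.23), AKINBETA1 (-0.15), RAPTOR1 (-0.48), AGL65 (-0.51), AT5G45880 (-0.46) and EXPA7 (-0.37). For day 5 against day 3 it turned the sign of ATG8D (-0.19), called with neither scaling, and of ATG3 (-0.32), ATG8A (-0.017), AT5G50230 (-0.092), AT3G43230 (-0.19), AT1G77890 (-0.38), RAPTOR1 (-0.38), AKINBETA1 (-0.45), WRKY6 (-0.10), AGL65 (-0.071), ANX2 (-0.040), AT5G45880 (-0.20) and EXPA7 (-0.42). The cause was not tested.

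A minimum of 2-fold left 93 calls between days 4 and 3 with 0 members, 362 between days 5 and 4 with 1 member (ATG8E), and 746 between days 5 and 3 with 0 members. Other autophagy genes called were 0 in each. Without 1 array the calls ranged from 227 (without day 3 replicate 1) to 1033 for day 4 against day 3, from 2506 to 4822 for day 5 against day 4 and from 3844 to 7034 for day 5 against day 3. The members called then ranged from 0 to 1, from 4 to 5 and from 5 to 7, their median for day 5 against day 3 from 0.51 to 0.65, and the other autophagy genes called from 1 to 5 for day 5 against day 4 and from 1 to 7 for day 5 against day 3. Signals near background limited none of the members.

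The labels do not say that replicate numbers pair samples, and the deviations of replicate 1 from the day means correlated at 0.06, -0.0022 and 0.10 over probe sets. With the replicate number as a block, the members called were 1, 7 and 6, as without it, and the other autophagy genes called were 0, 5 and 5.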
